A study of Mus musculus with 12 samples.

Results

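The 10 genes described here belong to the responses of the liver to endoplasmic reticulum (ER) stress and to the integrated stress response: Hspa5, Dnajb9, Herpud1, Xbp1, Atf4, Ddit3, Chac1, Trib3, Asns and Fgf21. They were taken by symbol from a table of 47069 mouse genes, in which each of the 10 was listed, and all 10 were among the 17386 genes tested, those with a mean of at least 0.1 FPKM (fragments per kilobase of transcript, scaled to the mapped reads of the library) over 12 libraries. Unfolded protein in the ER is sensed by the membrane proteins PERK, IRE1 and ATF6. PERK and the other kinases of the translation factor eIF2alpha slow protein synthesis while translation of ATF4 increases, and ATF4 in turn raises transcription of the CHOP gene and of genes of amino acid supply. IRE1 splices the Xbp1 transcript, and ATF6 and spliced XBP1 raise chaperones and the degradation machinery of the ER; hepatocytes, which secrete most plasma proteins, carry a large ER and depend on these pathways.

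Polyadenylated RNA of mice at postnatal day 14 was read from 1 end over 75 bp in 4 groups of 3 libraries: isolated hepatocytes and whole liver, each from wild type (WT) and Cdk1 Liv-/- animals. The Cdk1 Liv-/- animals carried 2 floxed Cdk1 alleles and a Cre recombinase driven by the albumin promoter. The deletion is therefore directed to hepatocytes and their precursors, and cells outside this lineage are not targeted. The labels call the controls wild type and do not say whether they carried a floxed allele or Cre. All animals received a standard diet, and the methods of the study state that males were used. The methods also give at least 3 biological replicates for every experiment. The labels number the replicates but do not say whether each came from a separate animal, so p-values measure only the spread between these samples. In such bulk samples, fewer cells of a type and less RNA per cell cannot be told apart.

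Cdk1 itself, read as a check of the labels, was at 27.9, 20.4 and 28.2 FPKM in WT hepatocytes and at 9.68, 11.8 and 6.87 FPKM in Cdk1 Liv-/- hepatocytes. In whole liver it was at 25.3, 22.7 and 21.5 FPKM in WT and at 11.7, 12.1 and 14.2 FPKM in Cdk1 Liv-/- libraries. No Cdk1 Liv-/- library reached the level of a WT library, with a log2 fold change of -1.40 in hepatocytes (adjusted p = 0.0148, limma) and -0.85 in whole liver (adjusted p = 0.00353). The values cover the whole gene, and transcripts that lack only the deleted exon would still be counted.

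Several libraries stood apart before any of the 10 genes was considered. In Cdk1 Liv-/- whole liver replicate 3, Xist, the RNA of the inactive X chromosome, reached 158 FPKM, and 4 genes of the Y chromosome (Kdm5d, Uty, Eif2s3y and Ddx3y) were all at 0, whereas Xist was at most 0.14 FPKM in the other 11 libraries, where these 4 genes summed to between 48.4 and 62.1 FPKM. WT hepatocyte replicate 3 held more transcripts of other liver cells than its partners, with 10 sinusoidal endothelial markers summing to 295 FPKM against 157 and 109 FPKM in replicates 1 and 2.

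Hspa5, which encodes the ER chaperone BiP (chr2:34771970-34777547, plus strand of GRCm38), was the most abundant of the 10 in every group, with means from 256 FPKM in WT hepatocytes to 333 FPKM in Cdk1 Liv-/- hepatocytes. Herpud1, an ER membrane protein that takes part in degrading misfolded proteins (chr8:94386438-94395377, plus strand), came next at 220.3 FPKM in WT hepatocytes and 182 FPKM in WT whole liver. Xbp1, the transcription factor activated by splicing (chr11:5520659-5525893, plus strand), followed at 75.1 and 85.4 FPKM in the same groups. In Cdk1 Liv-/- whole liver this order was exchanged, with Xbp1 at a mean of 116 FPKM and Herpud1 at 101 FPKM, although the libraries of these 2 genes overlapped, as they also did in Cdk1 Liv-/- hepatocytes. Atf4 (chr15:80255184-80257541, plus strand), Dnajb9, a J-domain cochaperone of BiP (chr12:44205559-44210326, minus strand), and Ddit3, the gene of CHOP (chr10:127290774-127296288, plus strand), took ranks 4 to 6 in all 4 groups without overlap between neighbours.

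The last 4 were the least abundant in every group: Chac1, which degrades glutathione (chr2:119351229-119354381, plus strand), Trib3, a pseudokinase that restrains ATF4 and AKT signaling (chr2:152337422-152344032, minus strand), Asns, asparagine synthetase (chr6:7675169-7693254, minus strand), and Fgf21, a hormone secreted by the liver (chr7:45613886-45615490, minus strand). Their WT means lay between 1.92 and 3.55 FPKM, and neighbours in that order overlapped in both WT groups. The low values of the table gave an estimated depth of 34.7 to 49.8 reads per FPKM and kilobase of transcript in the 12 libraries, which put between 44.7 and 360 reads behind Chac1, between 57.1 and 266 behind Fgf21 and between 36900 and 58000 behind Hspa5. Ddit3 overlaps 3 annotated genes: Mars and Gm4189 on the opposite strand and, on its own strand, a gene model that has no value here and whose reads strand could not separate. The library kit marks strand, while its use in counting was not stated. Mars, with means of 19.7 FPKM in hepatocytes of WT and 19.0 FPKM in those of Cdk1 Liv-/- animals, had log2 fold changes of -0.05 in hepatocytes and -0.003 in whole liver, neither past the threshold. Gm4189, at most at 1.59 FPKM, fell by 0.89 (adjusted p = 0.0802) and 0.75 (adjusted p = 0.0213). Antisense genes also overlap Herpud1 (at most 2.17 FPKM) and Dnajb9 (listed at 0).

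**Figure D1:**
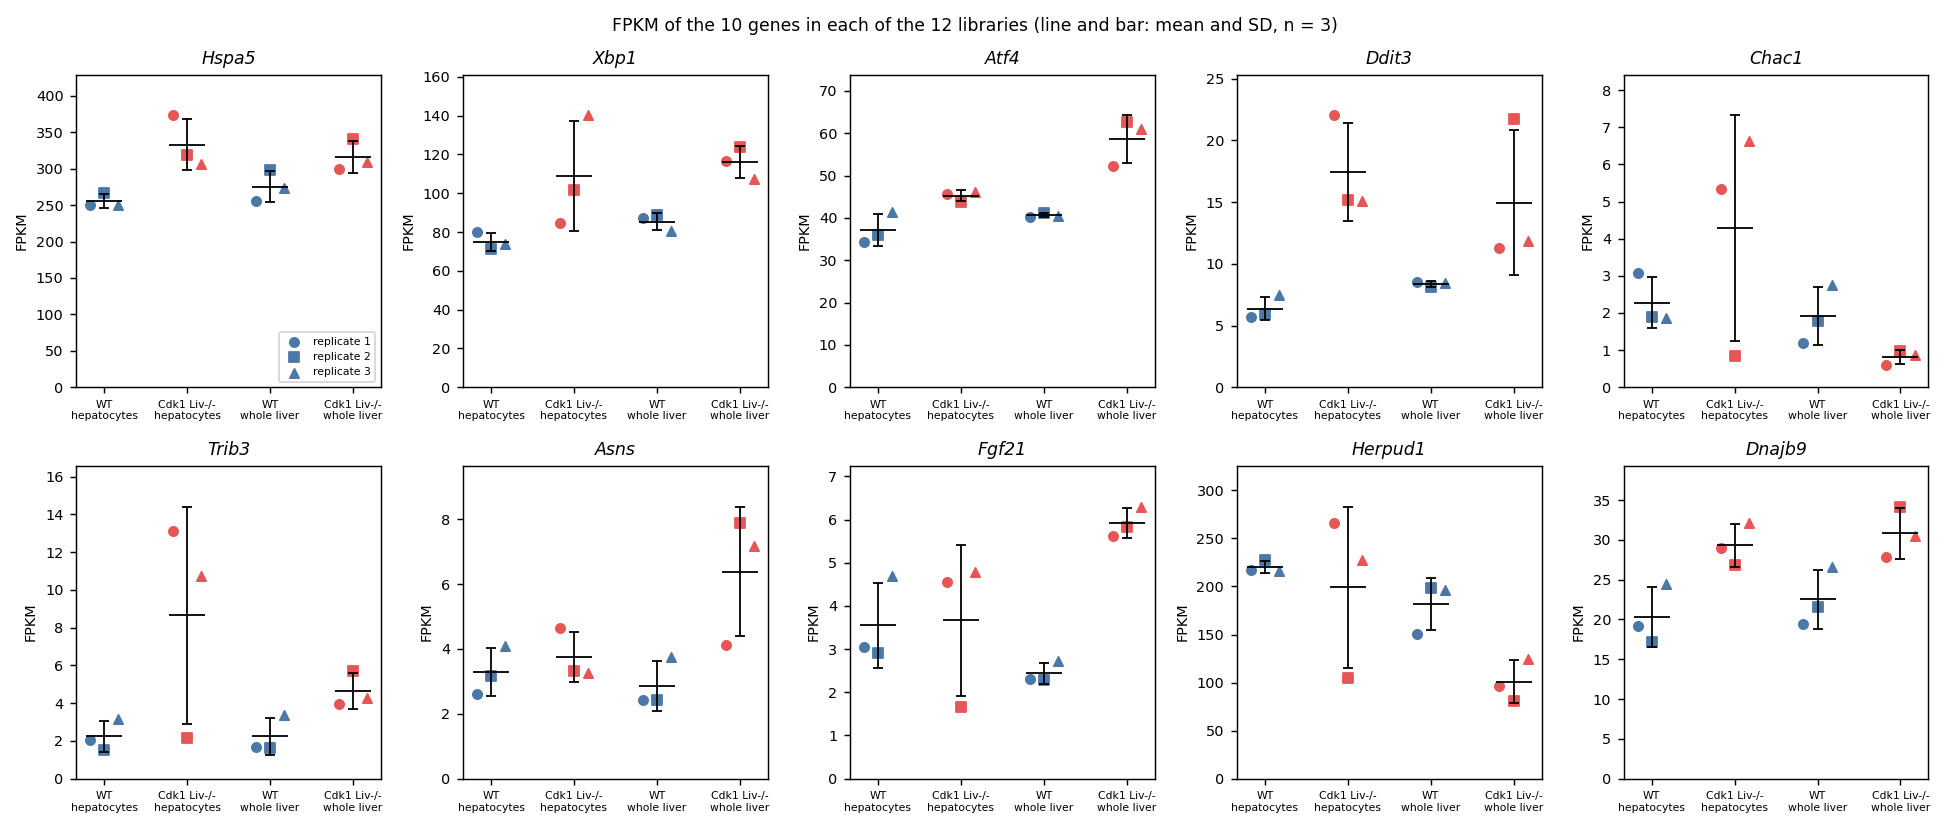
FPKM of the 10 genes (vertical axes, from 0) in the 12 libraries by group, with the replicates as symbols and the mean and SD of each group (n = 3) as lines. The 3 Ddit3 values of Cdk1 Liv-/- hepatocytes, 15.1 to 22.0 FPKM, lie above all WT values, and replicate 2 of that group is the lowest for Chac1, Trib3, Fgf21 and Herpud1.

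The promoters of several of the 10 genes are shown because the elements through which ER stress and ATF4 act were defined in genes of this kind. Windows from 250 bases before to 50 after the start were found for all 10 in RefSeq (GRCm38.p6) and searched on both strands for the ER stress element ERSE (CCAAT, 9 bases of any kind, CCACG), for ERSE-II (ATTGG, 1 base, CCACG) and for the C/EBP-ATF element (TGATG, 1 base, AA, 1 base). Of 32851 windows of this length, 39 (0.119%) held ERSE, and Hspa5 was the member among them, with a match 65 bases before the start. ERSE-II was found in 12 windows (0.0365%), among them Herpud1, 52 bases before the start. The C/EBP-ATF element was found in 1299 windows (3.95%) and in those of Chac1, Trib3, Asns, Fgf21 and Herpud1, and Xbp1, Atf4, Ddit3 and Dnajb9 had none of these letters in their windows. The windows of Hspa5 (chr2:34771840-34772139, plus strand), Herpud1 (chr8:94386179-94386478, plus strand), Chac1 (chr2:119350992-119351291, plus strand) and Fgf21 (chr7:45615441-45615740, minus strand) follow, each written 5′ to 3′ on the strand of its gene with the matches in capitals. In Herpud1, Chac1 and Fgf21 the C/EBP-ATF element reads on the opposite strand, so its capitals end in ATCA.
Hspa5: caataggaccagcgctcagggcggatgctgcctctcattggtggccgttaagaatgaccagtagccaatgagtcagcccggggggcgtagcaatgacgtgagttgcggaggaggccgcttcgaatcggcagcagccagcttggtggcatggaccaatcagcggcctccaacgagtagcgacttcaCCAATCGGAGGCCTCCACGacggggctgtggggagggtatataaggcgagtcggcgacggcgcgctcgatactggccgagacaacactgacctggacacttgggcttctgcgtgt
Herpud1: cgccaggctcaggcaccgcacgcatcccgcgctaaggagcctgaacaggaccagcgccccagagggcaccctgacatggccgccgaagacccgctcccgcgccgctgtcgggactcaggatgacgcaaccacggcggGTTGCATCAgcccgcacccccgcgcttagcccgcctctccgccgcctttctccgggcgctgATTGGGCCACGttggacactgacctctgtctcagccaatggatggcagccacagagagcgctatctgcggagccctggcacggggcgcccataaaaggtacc
Chac1: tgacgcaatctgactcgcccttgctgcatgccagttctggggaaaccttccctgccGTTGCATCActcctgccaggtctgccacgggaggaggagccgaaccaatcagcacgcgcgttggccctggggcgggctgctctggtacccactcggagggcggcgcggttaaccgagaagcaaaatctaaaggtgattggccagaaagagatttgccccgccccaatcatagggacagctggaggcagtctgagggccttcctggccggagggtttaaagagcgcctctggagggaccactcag
Fgf21: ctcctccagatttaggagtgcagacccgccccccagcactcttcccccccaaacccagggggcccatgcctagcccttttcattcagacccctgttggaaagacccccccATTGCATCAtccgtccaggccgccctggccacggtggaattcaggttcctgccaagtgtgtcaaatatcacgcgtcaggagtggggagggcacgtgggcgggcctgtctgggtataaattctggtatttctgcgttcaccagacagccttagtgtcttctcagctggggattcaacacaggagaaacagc
Asns held TGATGAAAC 23 bases before its start, and Trib3 held TGATGTAAA on the opposite strand, beginning 13 bases after its start. A match describes letters in a window, and binding was not tested.

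The comparison of hepatocytes asks how the stress genes stand in the cells from which Cdk1 was removed. Ddit3, the gene of the stress-induced transcription factor CHOP, rose 2.59-fold in Cdk1 Liv-/- hepatocytes, the chaperone genes Hspa5 and Dnajb9 rose 1.30-fold and 1.45-fold, and Atf4 rose 1.22-fold. Of the 10 genes, 4 passed an adjusted p of 0.1 as higher, where 12.1% of all genes tested did, and 0 as lower, against 6.61% of all genes. When the log2 fold change also had to reach 1, Ddit3 was the 1 gene that passed as higher (4.20% of all genes) and 0 passed as lower (2.17%). The median of the 10 log2 fold changes was 0.43, and that of all genes was 0.05. At an unadjusted p under 0.05, 5 of the 10 were higher and 0 lower by limma, and 4 and 0 by the ordinary two-sample test.

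Hspa5 was at 249.6, 267 and 250.4 FPKM in the WT and at 373, 319 and 307 FPKM in the Cdk1 Liv-/- hepatocytes. The 2 groups did not overlap, and the log2 fold change was 0.38 ± 0.10 (SE, adjusted p = 0.0602). Such a lack of overlap in hepatocytes held for 20.55% of all genes in the higher and 13.44% in the lower direction. Dnajb9, its cochaperone, was at 19.2, 17.2 and 24.5 FPKM in WT and at 29.0, 26.8 and 32.1 FPKM in Cdk1 Liv-/- hepatocytes. Every Cdk1 Liv-/- value was above every WT value (log2 fold change 0.53 ± 0.15, adjusted p = 0.0709). Herpud1 had WT values of 217, 228 and 216 FPKM and Cdk1 Liv-/- values of 266, 104 and 227 FPKM. The 3 WT libraries were close together, whereas replicate 2 of the Cdk1 Liv-/- group was far below and replicate 1 above all of them, and the gene did not pass (log2 fold change -0.25, adjusted p = 0.662). For Xbp1, the values were 80.3, 71.1 and 73.9 FPKM in WT and 84.6, 102 and 140.2 FPKM in Cdk1 Liv-/- hepatocytes. These groups did not overlap either, but the spread of the Cdk1 Liv-/- libraries was wide and the gene missed the threshold (log2 fold change 0.50, adjusted p = 0.137). Gene-level values sum the spliced and unspliced transcripts of Xbp1.

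Atf4, whose protein is controlled mainly at translation, was at 34.2, 36.0 and 41.4 FPKM in WT and at 45.8, 43.8 and 46.2 FPKM in Cdk1 Liv-/- hepatocytes. The groups were separate by a narrow margin (log2 fold change 0.28 ± 0.09, adjusted p = 0.0978). Ddit3 was at 5.71, 5.95 and 7.47 FPKM in WT and at 22.0, 15.2 and 15.1 FPKM in Cdk1 Liv-/- hepatocytes. The lowest Cdk1 Liv-/- library held more than any WT library by a wide gap, and the log2 fold change was 1.37 ± 0.18 (adjusted p = 0.00884). Trib3, a target of both ATF4 and CHOP, had WT values of 2.03, 1.53 and 3.13 FPKM and Cdk1 Liv-/- values of 13.1, 2.17 and 10.7 FPKM. Replicates 1 and 3 were high and replicate 2 was within the WT range, so the gene did not pass although its log2 fold change of 1.48 was the largest of the 10 (adjusted p = 0.186).

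The same Cdk1 Liv-/- library was low for other targets. Chac1 was at 3.08, 1.89 and 1.87 FPKM in WT and at 5.35, 0.84 and 6.64 FPKM in Cdk1 Liv-/- hepatocytes (log2 fold change 0.49, adjusted p = 0.655). Fgf21 was at 3.05, 2.90 and 4.69 FPKM in WT and at 4.55, 1.65 and 4.79 FPKM in Cdk1 Liv-/- hepatocytes (log2 fold change -0.04, adjusted p = 0.958). For both genes, replicate 2 lay below the WT libraries, while the other 2 lay above them for Chac1 and within their range or just above it for Fgf21. Asns, the enzyme of asparagine synthesis, did not show this pattern, with 2.60, 3.17 and 4.08 FPKM in WT and 4.64, 3.33 and 3.26 FPKM in Cdk1 Liv-/- hepatocytes, and the groups overlapped (log2 fold change 0.17, adjusted p = 0.633). Replicate 2 was the lowest of its group for 6 of the 10 genes and the highest for 0.

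Without Cdk1 Liv-/- hepatocyte replicate 2, Trib3 had a log2 fold change of 2.22 (adjusted p = 0.0195) and Chac1 of 1.25 (adjusted p = 0.0531), both then past the threshold, and Herpud1 and Fgf21 turned to 0.16 and 0.38, neither past it. Without replicate 1 or 3 of that group, Trib3 (adjusted p = 0.365 and 0.39) and Chac1 (0.895 and 0.986) did not pass. Replicate 2 was singled out because these genes were low in it. Higher estimates without it were thus fixed in advance and are no evidence of a rise. The same holds where it is left out below for these genes. In that library the 15 genes of the FGF21 receptor complex and of PPARalpha targets summed to 1065 FPKM, against 1558 and 1768 FPKM in its partners, and its estimated depth of 39.5 reads per FPKM and kilobase lay between theirs (40.4 and 34.7). The part of these differences in the low values was not tested.

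**Figure D2:**
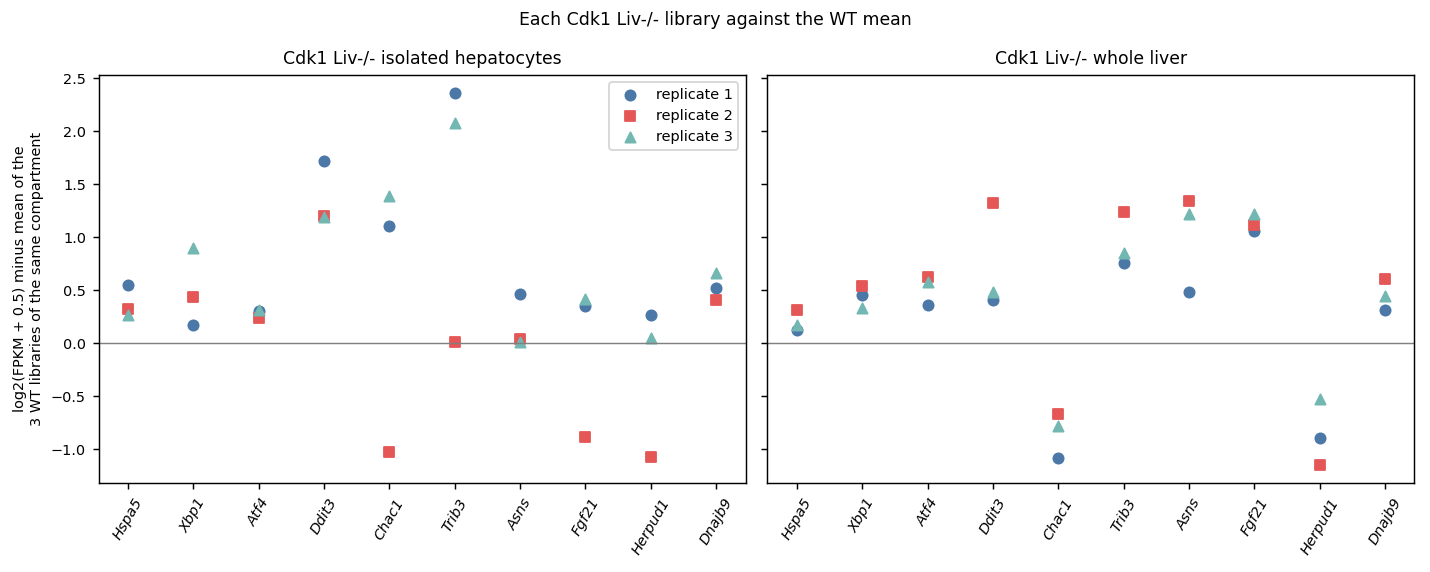
Each Cdk1 Liv-/- library as log2(FPKM + 0.5) minus the mean of the 3 WT libraries of its compartment (vertical axes, log2 units) for the 10 genes, with replicates as symbols. In hepatocytes, replicate 2 lies apart from the others for Chac1, Trib3, Fgf21 and Herpud1, and in whole liver the 3 replicates lie on the same side of 0 for each gene.

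Ddit3 passed the test in hepatocytes without any 1 of the 6 libraries (adjusted p 0.0193 to 0.0446). The other calls were less secure: Atf4 and Dnajb9 passed without WT replicate 3 (adjusted p = 0.0553 and 0.0366) but not without any other library (0.149 to 0.230 and 0.110 to 0.184), and Hspa5 was lost without WT replicate 1 (0.167), 2 (0.113) or 3 (0.141) or Cdk1 Liv-/- replicate 2 (just above 0.1), while Xbp1 was gained without Cdk1 Liv-/- replicate 1 (0.0775). Dividing by median-ratio size factors moved the median of all genes by -0.05 and the share of higher calls from 64.7% to 54.7%, and Ddit3 (1.30, adjusted p = 0.0120) and Dnajb9 (0.46, adjusted p = 0.0886) were then the genes that passed, with Hspa5 at 0.30 (adjusted p = 0.165) and Atf4 at 0.21 (adjusted p = 0.210).

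Marker transcripts of other cells also differed between the genotypes in the hepatocyte libraries. For comparison, 12.1% of all genes tested passed as higher there and 6.61% as lower. All 10 sinusoidal endothelial markers fell in Cdk1 Liv-/- hepatocytes, with sums of 73.4, 47.5 and 52.2 FPKM against 157, 109 and 295 FPKM in WT. Fcgr2b was the most abundant of them and none was at 0 in any library; 9 were lower without WT replicate 3 and 3 without Cdk1 Liv-/- replicate 2. Kupffer cell and macrophage markers, led by Cd5l, summed to 203, 152 and 131 FPKM against 325, 175 and 598 FPKM, with 1 of 10 lower (4 with median-ratio size factors), and stellate cell and fibroblast markers, led by Col3a1, to 124, 120.4 and 103 FPKM against 214, 125 and 436 FPKM, with 2 of 10 lower, and without either of these libraries no call of these 2 lists was left. The 9 hepatocyte markers listed, led by Alb, summed to 71751, 74487 and 69532 FPKM against 103080, 114590 and 110170 FPKM, with 2 lower and 2 higher (1 higher without Cdk1 Liv-/- replicate 2, and both higher calls lost without WT replicate 3; 1 higher with median-ratio size factors and 4 lower with the same FPKM sum in every library). Cholangiocyte markers, led by Spp1, summed to 73.7, 132 and 109 FPKM against 29.2, 24 and 38.8 FPKM, with 4 of 6 tested higher and with Cftr at 0 in 1 WT library. The part of these differences in the stress genes was not tested. Without WT replicate 3, the library with the largest endothelial sum, the log2 fold change of Ddit3 was 1.48 and that of Dnajb9 was 0.67.

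Immediate early genes, which respond within minutes to handling and dissociation of tissue as well as to stress, moved in both compartments. The share of all genes that passed as higher was 12.1% in hepatocytes and 38.0% in whole liver. In hepatocytes, 8 of 14 rose (6 without WT replicate 3, 5 without Cdk1 Liv-/- replicate 2) and the sums, led by Zfp36, were 382, 195 and 173 FPKM in WT and 578, 443 and 438 FPKM in Cdk1 Liv-/- libraries. In whole liver, which was snap frozen, 14 of 14 rose (12 with median-ratio size factors), from 86.9, 98.0 and 137 FPKM to 274, 339 and 211 FPKM. Fos (log2 fold change 2.02) and Atf3 (1.98) were highest in hepatocytes and Ier3 (2.75) and Atf3 (2.58) in whole liver, and the lowest were Nr4a1 (0.39, not past the threshold) and Jund (0.58) in hepatocytes and Ier2 (0.71) and Dusp1 (0.75) in whole liver. The interaction of Jund passed (-0.69, adjusted p = 0.0663), a call lost without WT hepatocyte replicate 3 or Cdk1 Liv-/- whole liver replicate 3. Their part in the changes of the 10 genes was not tested.

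**Figure D3:**
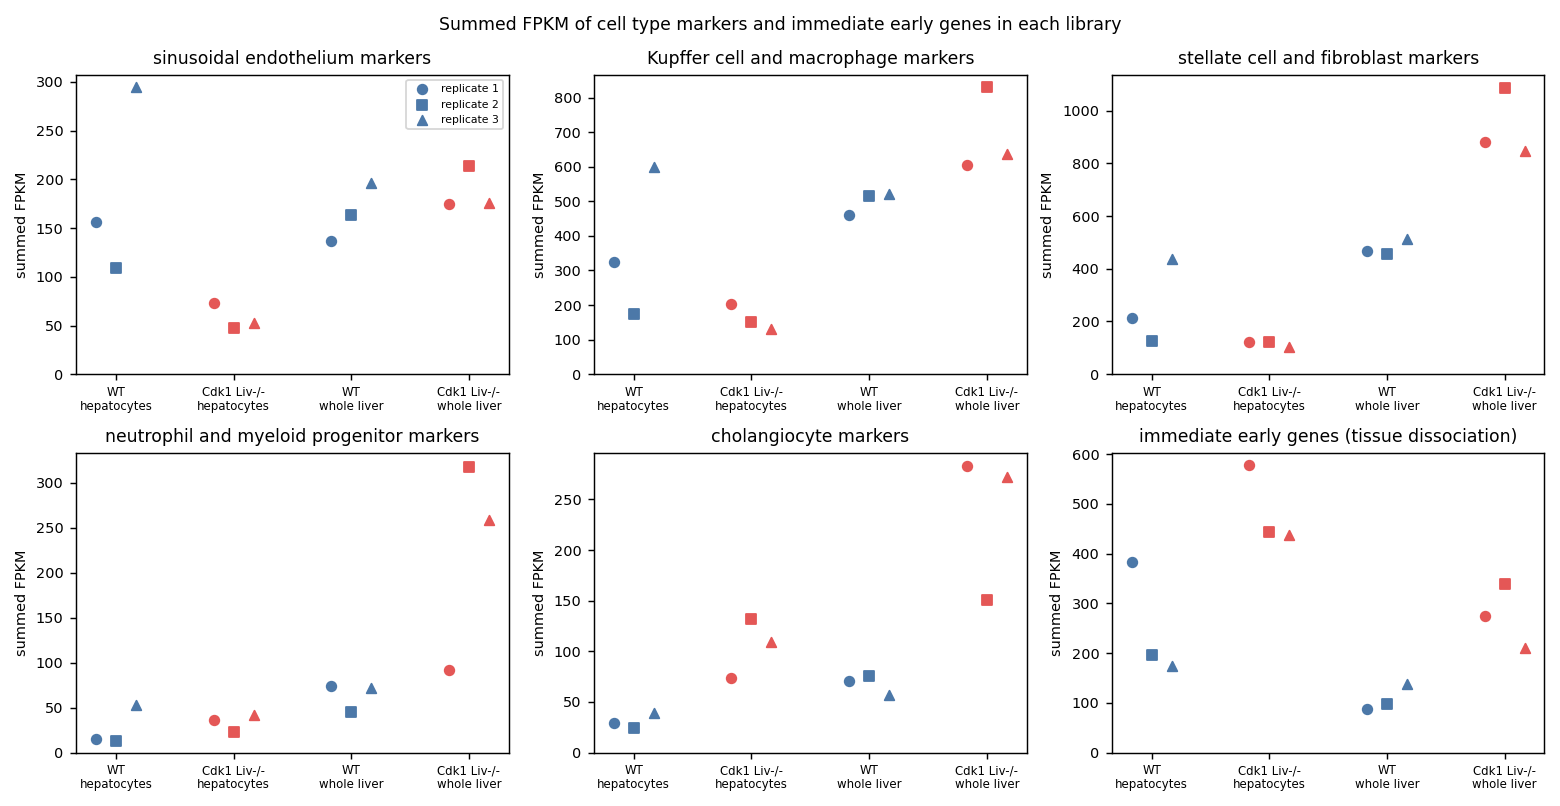
Summed FPKM (vertical axes, from 0) of 5 lists of cell type markers and of 14 immediate early genes in each library, by group, with replicates as symbols. WT hepatocyte replicate 3 has the highest endothelial sum of all libraries (295 FPKM), the Cdk1 Liv-/- hepatocytes have the lowest endothelial sums (47.5 to 73.4 FPKM), and the immediate early genes are higher in the Cdk1 Liv-/- than in the WT libraries of both compartments.

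In whole liver, where RNA of all cell types is measured together, more of the 10 genes differed between genotypes. Fgf21 rose 2.19-fold, Asns 2.02-fold, Trib3 1.93-fold and Ddit3 1.67-fold, with smaller increases of Atf4 (1.43-fold), Dnajb9 (1.37-fold) and Xbp1 (1.36-fold). Herpud1 and Chac1, by contrast, fell by 0.86 and 0.84 on the log2 scale. Thus 7 of the 10 passed as higher and 2 as lower, where 38.0% and 7.53% of all genes tested did. When the log2 fold change also had to reach 1, Fgf21 and Asns passed as higher (4.59% of all genes) and 0 genes as lower (1.00% of all genes; 2 of the 10 were lower at an unadjusted p under 0.05 by limma and by the ordinary two-sample test). The WT and Cdk1 Liv-/- libraries did not overlap for any of the 10 genes, as for 43.2% of all genes in the higher and 8.94% in the lower direction.

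Hspa5 was at 255, 298 and 273 FPKM in WT and at 299, 341 and 309 FPKM in Cdk1 Liv-/- whole liver, which separated the groups by a narrow margin, and it did not pass (log2 fold change 0.20, adjusted p = 0.113). Dnajb9 was at 19.4, 21.6 and 26.6 FPKM in WT and at 27.9, 34.2 and 30.5 FPKM in Cdk1 Liv-/- whole liver (log2 fold change 0.45 ± 0.13, adjusted p = 0.0471). Xbp1 was at 87.1, 88.6 and 80.4 FPKM in WT and at 117, 124 and 108 FPKM in Cdk1 Liv-/- libraries (log2 fold change 0.44 ± 0.07, adjusted p = 0.00876). For both, the highest WT and the lowest Cdk1 Liv-/- library were apart, by less for Dnajb9 than for Xbp1. Herpud1 went the other way, from 151, 198 and 197 FPKM in WT to 96.8, 81.2 and 125 FPKM in Cdk1 Liv-/- whole liver (log2 fold change -0.86 ± 0.19, adjusted p = 0.0196). All 3 Cdk1 Liv-/- libraries lay below the lowest WT library.

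Among the genes of the integrated stress response, Atf4 was at 40.3, 41.2 and 40.4 FPKM in WT and at 52.2, 62.7 and 60.9 FPKM in Cdk1 Liv-/- whole liver (log2 fold change 0.52 ± 0.08, adjusted p = 0.00717). Ddit3 was at 8.56, 8.13 and 8.42 FPKM in WT and at 11.3, 21.8 and 11.9 FPKM in Cdk1 Liv-/- libraries (log2 fold change 0.74 ± 0.25, adjusted p = 0.0659). The WT libraries of both genes were tightly grouped, and replicate 2 held the highest Cdk1 Liv-/- value. Without that replicate Ddit3 had a smaller log2 fold change of 0.44 with an adjusted p of 0.0104.

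Of the targets of ATF4, Asns was at 2.42, 2.41 and 3.76 FPKM in WT and at 4.11, 7.87 and 7.18 FPKM in Cdk1 Liv-/- whole liver (log2 fold change 1.01 ± 0.27, adjusted p = 0.0363). Trib3 was at 1.69, 1.63 and 3.38 FPKM in WT and at 3.93, 5.71 and 4.25 FPKM in Cdk1 Liv-/- whole liver (log2 fold change 0.95 ± 0.27, adjusted p = 0.0414). In both genes WT replicate 3 was the highest of its group and lay just under the lowest Cdk1 Liv-/- library. Chac1 was at 1.2, 1.79 and 2.76 FPKM in WT and at 0.60, 0.97 and 0.86 FPKM in Cdk1 Liv-/- libraries (log2 fold change -0.84 ± 0.26, adjusted p = 0.0496). It was the 1 member of this arm that was lower, at the smallest values of the 10 genes. Fgf21 was at 2.30, 2.29 and 2.72 FPKM in WT and at 5.62, 5.83 and 6.30 FPKM in Cdk1 Liv-/- whole liver (log2 fold change 1.13 ± 0.09, adjusted p = 0.00115). The 3 libraries of each genotype were close together and far from those of the other.

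**Figure D4:**
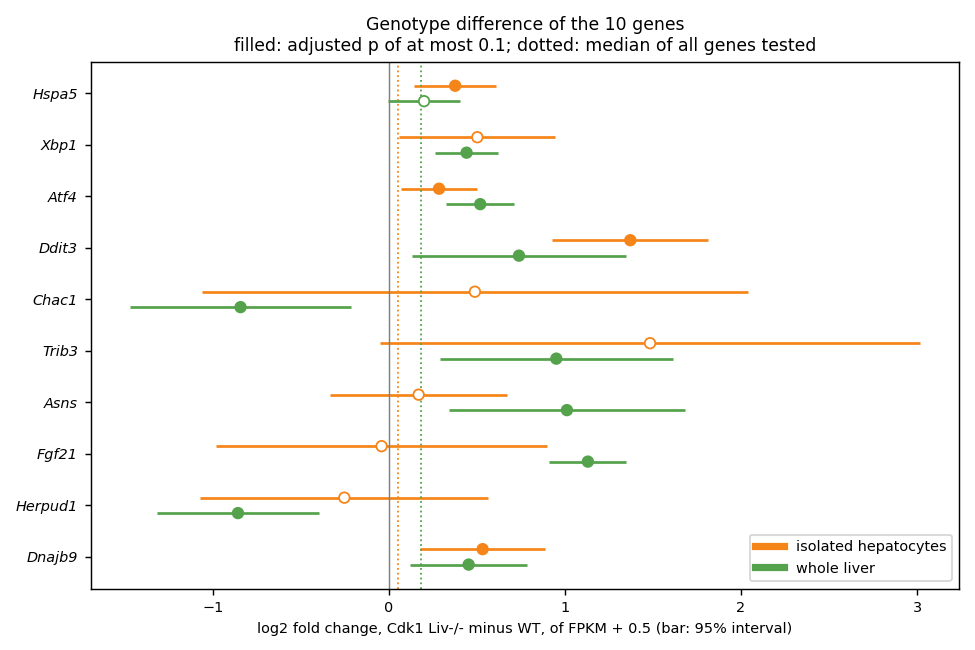
Log2 fold change of FPKM + 0.5, Cdk1 Liv-/- minus WT, with its 95% interval for the 10 genes in hepatocytes and whole liver (n = 3 per group). Filled points passed an adjusted p of 0.1 and dotted lines mark the median of all genes (0.05 and 0.18); Herpud1 and Chac1 lie below 0 in whole liver, and Hspa5 moves from 0.20 to -0.02 there with median-ratio size factors.

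These whole-liver values sit on a shift of all genes. The median log2 fold change of the 17386 genes was 0.18, and 72.7% of them were above 0. Median-ratio size factors moved this median by -0.17, to 0.01, and the share of higher calls from 83.5% to 52.2%. On that scale 3107 of the 17386 genes passed as higher and 2844 as lower. Of the 10 genes, 4 passed as higher, namely Fgf21 (log2 fold change 0.93, adjusted p = 0.00284), Asns (0.81, adjusted p = 0.0822), Atf4 (0.30, adjusted p = 0.0288) and Xbp1 (0.22, adjusted p = 0.0525), and 2 as lower, Herpud1 (-1.08, adjusted p = 0.0141) and Chac1 (-0.98, adjusted p = 0.0423). Trib3 (0.75, adjusted p = 0.101), Ddit3 (0.53, adjusted p = 0.164) and Dnajb9 (0.24, adjusted p = 0.255) no longer passed, and Hspa5 was at -0.02.

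Without Cdk1 Liv-/- whole liver replicate 3, the library with Xist and without the Y-linked genes, 5 of the member genes passed as higher and 1 as lower. Calls over all genes tested also became fewer in that fit, with 5479 higher and 992 lower against 6610 and 1310 with every library. Fgf21 (log2 fold change 1.09, adjusted p = 0.00792), Herpud1 (-1.02, adjusted p = 0.0206), Xbp1 (0.50, adjusted p = 0.0173), Atf4 (0.49, adjusted p = 0.0284), Trib3 (1.00, adjusted p = 0.0896) and Ddit3 (0.87, adjusted p = 0.0833) kept their calls, and Asns (adjusted p = 0.103), Chac1 (0.105) and Dnajb9 (0.108) lost theirs. Fgf21, Atf4, Xbp1 and Herpud1 passed without any 1 of the 6 libraries. Calls were also lost without WT replicate 1 for Ddit3 (0.15), Trib3 (0.127), Asns (0.115) and Dnajb9 (0.128), without WT replicate 2 for Ddit3 (0.153), Chac1 (0.116), Trib3 (0.116), Asns (0.107) and Dnajb9 (0.125), without WT replicate 3 for Ddit3 (0.143), without Cdk1 Liv-/- replicate 1 for Chac1 (0.122) and without Cdk1 Liv-/- replicate 2 for Trib3 (0.106) and Dnajb9 (0.116), whereas Hspa5 was gained without WT replicate 2 (0.0929).

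Markers of other cells moved in whole liver as well. There 38.0% of all genes tested passed as higher and 7.53% as lower, or 3107 and 2844 of the 17386 with median-ratio size factors. Stellate cell and fibroblast markers summed to 880, 1087 and 845 FPKM in Cdk1 Liv-/- against 466, 457 and 514 FPKM in WT libraries, with 7 of 10 higher. Neutrophil and myeloid progenitor markers, led by S100a9, summed to 91.6, 318 and 258 FPKM against 74.0, 45.6 and 71.5 FPKM, with 6 of 9 higher (2 without replicate 3), and cholangiocyte markers to 283, 151 and 272 FPKM against 70.8, 75.2 and 57.3 FPKM, with 4 of 6 tested higher (2 without replicate 3 and 2 with median-ratio size factors). Kupffer cell markers, with 4 of 10 higher (2 with median-ratio size factors), near the share of all genes, summed to 604, 832 and 636 FPKM against 460.4, 515 and 519.9 FPKM. Hepatocyte markers, with 5 of 9 lower (3 without replicate 3), summed to 83495, 78734 and 81855 FPKM against 107800, 105740 and 110600 FPKM. Replicate 2 was the highest of its group for 8 of the 10 genes, Ddit3 among them, and replicate 1 was the lowest for 8. Replicate 2 also had the highest Kupffer, stellate and neutrophil sums and the lowest cholangiocyte and hepatocyte sums. The part of these shifts in the whole-liver values of the 10 genes was not tested.

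The interaction over all 12 libraries tests whether the genotype effect in hepatocytes departs from that in whole liver. Of the 10 genes, 0 passed in either direction, where 2.35% of all genes did as higher and 7.49% as lower, and by limma 0 were higher and 2 lower at an unadjusted p under 0.05. The largest estimates were those of Chac1 (hepatocyte minus whole-liver log2 fold change 1.33, 95% interval -0.29 to 2.95, adjusted p = 0.302), Fgf21 (-1.17, -2.10 to -0.24, adjusted p = 0.129) and Asns (-0.84, -1.62 to -0.06, adjusted p = 0.181). A difference between compartments in the genotype effect of these genes was thus not shown. Median-ratio size factors moved the median of all genes by 0.12 from -0.11 and the share of higher calls from 23.9% to 52.7%, and gave Chac1 1.41, Fgf21 -1.03 and Asns -0.70. The estimates of Ddit3 (0.63, -0.08 to 1.34, adjusted p = 0.265) and Herpud1 (0.60, -0.30 to 1.51, adjusted p = 0.410) also left a wide range, and those of Dnajb9 and Xbp1 were 0.08 and 0.06. Without Cdk1 Liv-/- hepatocyte replicate 2, Chac1 (2.09, adjusted p = 0.0298) and Herpud1 (1.01, adjusted p = 0.0567) passed, Ddit3 passed without Cdk1 Liv-/- whole liver replicate 2 (0.93, adjusted p = 0.0950), and Asns passed without Cdk1 Liv-/- whole liver replicate 1 (-1.11, adjusted p = 0.0859).

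Markers of other cells had lower interactions in the same libraries. This held for 9 of 10 sinusoidal endothelial markers (median -1.73), of which 7 passed without WT hepatocyte replicate 3, 4 without replicate 2 of the Cdk1 Liv-/- hepatocytes, 3 without replicate 3 of the Cdk1 Liv-/- whole liver and 5 with median-ratio size factors. It also held for 4 of 10 stellate cell markers (median -1.58; 4, 2, 1 and 1 in the same order) and for 3 of 10 Kupffer cell markers (median -1.42), of which 1 passed in each of these settings except without whole liver replicate 3, where all 3 calls were lost; 6 passed with the same FPKM sum in every library. Hepatocyte markers went the other way for Cps1 (1.61, adjusted p = 0.01) and Hnf4a (0.58, adjusted p = 0.0681), with 1 hepatocyte marker past the threshold without WT hepatocyte replicate 3 and 1 without whole liver replicate 3 of the Cdk1 Liv-/- group. The T and NK cell marker Ncr1 (-0.63, adjusted p = 0.0707) passed as lower, a call lost without either of these libraries, and the acinar gene Cela2a (0.98, adjusted p = 0.0707) as higher, a call lost without the latter. The part of these markers in the interaction of the 10 genes was not tested.

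The comparison of compartments sets the levels of the 10 genes in isolated hepatocytes against those in whole liver. In WT animals 0 of the 10 passed, where 0.104% of all genes were higher and 1.42% lower in hepatocytes than in whole liver, and by limma 1 was higher and 2 were lower at an unadjusted p under 0.05 (0 and 1 by the ordinary two-sample test). Xbp1 and Ddit3 were below their whole-liver values in every WT hepatocyte library (log2 fold changes -0.18 and -0.38), and Fgf21 and Herpud1 above them (0.44 and 0.29), where 20.7% of all genes were without overlap in the lower and 5.28% in the higher direction. Without WT hepatocyte replicate 3, Ddit3 (-0.49, adjusted p = 0.0421) and Atf4 (-0.21, adjusted p = 0.0708) passed as lower, as did 2656 of the 17386 genes. Markers of other cells passed as lower in the same fit, among them 8 of 10 of stellate cells, 8 of 9 of B and plasma cells, 7 of 9 of T and NK cells and 5 of 10 of Kupffer cells, whereas with all libraries the calls were 3 of 6 cholangiocyte, 2 T and NK, 1 B and plasma and 1 erythroid marker, of which 1 cholangiocyte call was left with median-ratio size factors. Of the 10 sinusoidal endothelial markers, 0 passed in either direction with all libraries (median log2 fold change 0.04, 6 above 0 and 4 below). They summed to 157, 109 and 295 FPKM in WT hepatocytes and to 137, 164 and 196 FPKM in WT whole liver. The part of these markers of other cells in the values of Ddit3 and Atf4 was not tested. The amino acid gene Asns and the chaperone Hspa5 had log2 fold changes of 0.18 and -0.11.

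The immediate early genes had a median log2 fold change of 0.94 between the WT compartments, against -0.10 for all genes, and their sums did not overlap (382, 195 and 173 FPKM in hepatocytes, 86.9, 98.0 and 137 FPKM in whole liver). Of the 14, 8 were higher at an unadjusted p under 0.05 by limma and 4 by the ordinary two-sample test; with all libraries none passed the adjusted threshold, and 5 passed without WT hepatocyte replicate 3. Their part in the WT values of the 10 genes was not tested.

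In Cdk1 Liv-/- animals, Chac1 was 2.94-fold higher in hepatocytes than in whole liver (log2 fold change 1.56 ± 0.62, adjusted p = 0.0996), and Atf4 (-0.36 ± 0.09, adjusted p = 0.0265) and Asns (-0.67 ± 0.26, adjusted p = 0.0915) were lower. This made 1 of 10 higher and 2 of 10 lower, where 8.86% and 35.9% of all genes passed. Herpud1 (0.89, adjusted p = 0.106) and Fgf21 (-0.73, adjusted p = 0.151) did not pass. With the median-ratio size factors, which moved the median of all genes by 0.21 from -0.19 and the share of higher calls from 19.8% to 48.6%, Chac1 (1.74, adjusted p = 0.0850), Herpud1 (1.16, adjusted p = 0.0643) and Hspa5 (0.34, adjusted p = 0.0651) passed as higher, and Atf4 (-0.09) and Asns (-0.42) did not pass.

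Transcripts of other cells were lower in the Cdk1 Liv-/- hepatocytes than in whole liver of the same genotype. All 10 Kupffer cell (median log2 fold change -2.01), 10 endothelial (-1.76) and 10 stellate cell markers (-2.52) passed as lower, as did all 9 B and plasma cell (-1.64), 9 T and NK cell (-1.08), 8 erythroid (-3.01) and 6 cholangiocyte markers (-1.25). Of 9 neutrophil markers 8 were lower (-2.70; 5 without hepatocyte replicate 2, 6 without whole liver replicate 3), and Prtn3, which myeloid progenitors make, was higher (1.07, adjusted p = 0.0393; a call lost without whole liver replicate 3). Of the 9 hepatocyte markers 2 were higher and 1 lower, and the lower call was lost without whole liver replicate 3 and with median-ratio size factors, which left 3 higher. Of 14 immediate early genes 7 were higher, with Fos at 1.82 (adjusted p = 0.0220), and Ier3 (-1.13) and Atf3 (-0.90) were lower, 1 of these without hepatocyte replicate 2 or with median-ratio size factors. The part of these differences in the values of the 10 genes was not tested.

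Calls in this comparison turned on single libraries. Without Cdk1 Liv-/- hepatocyte replicate 2, Chac1 (2.31, adjusted p = 0.00433), Herpud1 (1.30, adjusted p = 0.0129) and Trib3 (1.28, adjusted p = 0.0117) passed as higher and Fgf21 (-0.31, adjusted p = 0.0762) and Atf4 as lower, while Asns lost its call (0.2). Chac1 was lost without any 1 of the other 5 libraries (adjusted p 0.181 to 0.252), Asns was lost without hepatocyte replicate 3 (0.218) or whole liver replicate 2 (0.239) or 3 (0.235), and Ddit3 was gained without whole liver replicate 2 (0.55, adjusted p = 0.0994). Atf4 passed without any 1 of the 6 (adjusted p 0.0189 to 0.0943).

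The other genes of the pathway were read from lists, several of which hold some of the 10 genes. Their counts stand beside 12.1% of all genes higher and 6.61% lower in hepatocytes, and 38.0% and 7.53% in whole liver. With median-ratio size factors, all genes had 1709 higher and 1414 lower in hepatocytes and 3107 and 2844 in whole liver, of 17386. Among 8 sensors of ER stress and the proteases that release ATF6, 2 rose in hepatocytes and 5 in whole liver. Eif2ak3, the gene of PERK, rose in both (log2 fold change 0.64, adjusted p = 0.0561, and 0.63, adjusted p = 0.0194), as did Creb3l2 (0.80 and 0.71). Ern1, the gene of IRE1, did not pass in either (0.67, adjusted p = 0.132, and 0.15, adjusted p = 0.193). Atf6 (0.23 and 0.21), Atf6b (0.03 and 0.20) and Mbtps2 (0.19 and 0.31) passed in whole liver but not in hepatocytes, and Creb3l3 (0.11 and 0.08) and Mbtps1 (-0.02 and -0.02) in neither. With median-ratio size factors 2 of the 8, Eif2ak3 and Creb3l2, were higher and 1, Mbtps1, lower in whole liver, where Ern1, Atf6b and Creb3l3 turned negative. In hepatocytes 1, Eif2ak3, passed with the same FPKM sum in every library, 1 passed without WT replicate 3, and neither call was kept without Cdk1 Liv-/- replicate 2.

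Of 9 kinases of eIF2alpha, phosphatase subunits and partners, 2 rose in hepatocytes and 4 in whole liver (44.4%, against 38.0% of all genes). Ppp1r15a, the stress-induced phosphatase subunit GADD34, had log2 fold changes of 0.19 (adjusted p = 0.690) and 0.80 (adjusted p = 0.0416), the latter call lost with median-ratio size factors (0.59, adjusted p = 0.118). Its constitutive counterpart Ppp1r15b was at 0.11 and -0.11, and the kinases Eif2ak1 (-0.03 and 0.04) and Eif2ak4 (-0.02 and 0.08) did not pass. Dnajc3, a PERK inhibitor, rose in hepatocytes (0.43, adjusted p = 0.0962, a call lost under both other scalings) and was at -0.01 in whole liver. Under median-ratio size factors the whole-liver counts were 3 higher and 3 lower, with Dnajc3, Ppp1r15b and Eif2ak1 below 0 and past the threshold and Eif2ak4 also below 0, the hepatocyte count was 1 higher, and 1 interaction call was gained. The hepatocyte count was also 1 with the same FPKM sum and without WT replicate 3, and both hepatocyte calls were lost without Cdk1 Liv-/- replicate 2.

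Among 23 ER chaperones and folding enzymes, Hspa5 and Dnajb9 included, 8 rose and 2 fell in hepatocytes (median log2 fold change 0.31), and 5 rose and 4 fell in whole liver (median 0.08). Dnajc10, an ER reductase, rose by 0.32 (adjusted p = 0.0790, a call lost under both other scalings) and 0.53 (adjusted p = 0.00758), and Ero1b, an oxidase, was at 0.54 (adjusted p = 0.124) in hepatocytes and -0.05 in whole liver. Sil1, the nucleotide exchange factor of BiP, fell by 0.38 (adjusted p = 0.0493) and 0.17 (adjusted p = 0.0548), and Cnpy2 by 0.43 (adjusted p = 0.0249) and 0.23 (adjusted p = 0.0274). Ppib fell in whole liver (-0.24, adjusted p = 0.0130) and was at -0.22 in hepatocytes. Sdf2l1, a cofactor of ER chaperones, was at 0.48 (adjusted p = 0.147) in hepatocytes and -0.27 (adjusted p = 0.0883, lost with the same FPKM sum) in whole liver. Its interaction passed (0.75, adjusted p = 0.0828), but no gene of the list kept such a call without WT hepatocyte replicate 3 or Cdk1 Liv-/- whole liver replicate 3, and 4 passed with median-ratio size factors, where 548 of all genes were higher and 492 lower. The whole-liver counts moved with the scaling of all genes: under median-ratio size factors 1 was higher and 9 lower, and with the same FPKM sum in every library 10 were higher and 3 lower. The median of the list was below that of all genes on each scale (0.08 against 0.18, -0.15 against 0.01 and 0.11 against 0.21). In hepatocytes median-ratio size factors left 2 higher and 2 lower. In hepatocytes 2 were higher and 1 lower without WT replicate 3, and 3 and 1 without Cdk1 Liv-/- replicate 2, and in whole liver 2 and 2 without Cdk1 Liv-/- replicate 3.

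Of 18 genes of ER-associated degradation, the group of Herpud1, 1 rose and 1 fell in hepatocytes and 7 rose and 3 fell in whole liver. The share that rose in whole liver, 38.9%, was near the 38.0% of all genes, and that in hepatocytes, 5.56%, was below 12.1%. The pair that forms the core ubiquitin ligase moved apart in hepatocytes, where Syvn1 rose (log2 fold change 0.50, adjusted p = 0.0389) and its partner Sel1l fell by 0.48 (adjusted p = 0.0493); in whole liver they were at 0.13 and -0.26, with Sel1l past the threshold (adjusted p = 0.0255). Edem1 was at 0.34 and -0.07 and did not pass, and Edem2 (0.34) and Erlec1 (0.32) rose in whole liver. With median-ratio size factors all 7 higher calls in whole liver were lost and 6 genes were lower, Herpud1 and Edem1 among them, and Syvn1 turned to -0.09. In hepatocytes 2 were higher without WT replicate 3, and the lower call was lost without Cdk1 Liv-/- replicate 2. Interaction calls, all higher, were gained by 2 genes with median-ratio size factors, 1 without WT hepatocyte replicate 3 and 3 without Cdk1 Liv-/- hepatocyte replicate 2. Of 22 genes of ER translocation and vesicle coats, 3 rose and 1 fell in hepatocytes and 13 rose in whole liver, or 2 higher and 3 lower, Ssr2 among these, with median-ratio size factors, which also ended the calls of Sec24d in hepatocytes and Sec61g in whole liver. Ssr3 (0.60 and 0.40) and Sec24d (0.36 and 0.49) rose in both compartments, Sec61g (0.93 and 0.63) rose in whole liver, Srp14 fell in hepatocytes (-0.21, a call lost with the same FPKM sum and without WT replicate 3 or Cdk1 Liv-/- replicate 2) and was at 0.20 in whole liver without passing, and Ssr2 (-0.21 and -0.04) and Sec62 (-0.06 and -0.03) did not pass. The interaction of Srp14 passed (-0.41, adjusted p = 0.0741), a call lost with median-ratio size factors and without WT hepatocyte replicate 3 or Cdk1 Liv-/- whole liver replicate 3.

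Of 34 targets of ATF4 and CHOP, Chac1, Trib3, Asns and Fgf21 included, 32 were tested, and 6 rose and 1 fell in hepatocytes and 20 rose and 3 fell in whole liver. The median log2 fold changes were 0.27 and 0.59. Gdf15, a stress-induced cytokine, rose by 2.84 in hepatocytes (adjusted p = 0.00614) and 2.49 in whole liver (adjusted p = 0.00310), with means of 2.95 and 24.9 FPKM in WT and Cdk1 Liv-/- hepatocytes. Atf3, a transcription factor that is also an immediate early gene, rose by 1.98 (adjusted p = 0.00970) and 2.58 (adjusted p = 0.0155). Cth, which makes cysteine, fell by 1.38 (adjusted p = 0.00346) and 1.71 (adjusted p = 0.0136), and Jdp2 was at -0.89 (adjusted p = 0.257) in hepatocytes and 0.56 (adjusted p = 0.0631) in whole liver. These 4 genes kept their directions under median-ratio size factors, although Jdp2 no longer passed in whole liver. The list then had 6 higher and 1 lower in hepatocytes and 11 higher and 5 lower in whole liver, where Cebpg (-0.16, adjusted p = 0.0550) and Atf5 (-0.05, not passed), chosen after their values were seen, turned below 0. Without the library that expressed Xist, 16 were higher and 1 lower. Without Cdk1 Liv-/- hepatocyte replicate 2, interaction calls were gained by 1 gene as higher and 1 as lower.

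Of 20 cytosolic aminoacyl-tRNA synthetases, many of which ATF4 also induces, 1 rose in hepatocytes and 12 in whole liver. That gene was Vars (log2 fold change 1.10, adjusted p = 0.00215), which also rose in whole liver (0.63, adjusted p = 0.00659) and whose interaction passed (0.47, adjusted p = 0.0788), a call lost without WT hepatocyte replicate 3 or Cdk1 Liv-/- hepatocyte replicate 2. Gars rose in whole liver (0.54, adjusted p = 0.00420) and was at 0.21 in hepatocytes, and its interaction (-0.33, adjusted p = 0.0919) no longer passed with median-ratio size factors and without WT hepatocyte replicate 3 or Cdk1 Liv-/- whole liver replicate 3. Without Cdk1 Liv-/- hepatocyte replicate 2, 3 synthetases passed as lower in the interaction. Eprs was at 0.56 in hepatocytes without passing. Cars (-0.15 and 0.23), Hars (-0.16 and 0.08), Tars (-0.14 and 0.05) and Mars did not pass. Under median-ratio size factors 4 were higher in whole liver and Hars, Mars and Tars lower, and with the same FPKM sum Cars and Hars passed as higher there.

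A list of 9 cell death genes was read under the label of CHOP partners. Of these, 3 rose in hepatocytes and 7 in whole liver, and 3 and 6 with median-ratio size factors. The study describes Bbc3 and Bcl2l11 as p53 targets and reports more p53 phosphorylation in Cdk1 Liv-/- hepatocytes. Whether CHOP or p53 had a part in the changes of this list was not tested. The death receptor Tnfrsf10b rose by 2.20 (adjusted p = 0.00319) and 2.17 (adjusted p = 0.000376), the BH3-only gene Bbc3 by 2.14 (adjusted p = 0.00593) and 1.45 (adjusted p = 0.00198), and Pmaip1 by 1.60 (adjusted p = 0.0119) and 1.61 (adjusted p = 0.00131). Bcl2l11 (-0.42 and 0.32) and Ero1a (-0.25 and 0.19) did not pass in either compartment.

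Of 15 genes of the FGF21 receptor complex and of targets of PPARalpha, the fatty acid sensor that induces Fgf21 in fasting, 3 rose and 1 fell in hepatocytes and 8 rose and 2 fell in whole liver, or 6 and 3 there with median-ratio size factors. Vnn1 (log2 fold change 1.48, adjusted p = 0.0646, and 1.84, adjusted p = 0.00115) and Acot1 (1.63, adjusted p = 0.0624, and 1.69, adjusted p = 0.0129) rose in both compartments. Ppara itself fell in whole liver by 1.34 (adjusted p = 0.0113) and was at -0.67 (adjusted p = 0.563) in hepatocytes, and Cyp4a14 was at -0.94 and 0.67 without passing. Fgfr3, chosen after its values were seen, rose in hepatocytes (0.74, adjusted p = 0.0432), was at -0.17 in whole liver and was the 1 gene of the list whose interaction passed (0.92, adjusted p = 0.0708), a call lost without replicate 3 of either WT hepatocytes or Cdk1 Liv-/- whole liver and also without replicate 2 of Cdk1 Liv-/- hepatocytes. With the same FPKM sum 1 gene gained an interaction call as lower. Without WT hepatocyte replicate 3, 2 genes were higher in hepatocytes and the lower call was lost.

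Chaperones outside the ER were read for comparison. Of 16 cytosolic heat shock genes 7 rose in hepatocytes and 10 in whole liver, led by Hspb1 (log2 fold change 1.75, adjusted p = 0.0367, and 2.04, adjusted p = 0.000251), and 5 rose in hepatocytes and 6 rose and 2 fell in whole liver with median-ratio size factors, under which Hspa1a lost its call, Hsph1 passed as lower in whole liver and 3 genes gained an interaction call as higher. Hspa1b was at 1.30 without passing in hepatocytes and rose in whole liver (0.78), Hspa1a was at 0.19 and rose in whole liver by 0.41, and Hsph1 (0.56 and -0.15), Dnaja1 (0.32 and 0.02) and Hsf1 (0.17 and 0.09) did not pass. Of 15 genes of mitochondrial stress 2 rose and 1 fell in hepatocytes, where Spg7 (0.49), Lonp1 (0.41) and Clpx (-0.39) were past the threshold, and 2 rose and 3 fell in whole liver, or 7 fell and both higher calls were lost with median-ratio size factors, and 5 rose with the same FPKM sum. The call of Clpx was lost with the same FPKM sum and without WT replicate 3 or Cdk1 Liv-/- replicate 2, and 1 rose in whole liver without Cdk1 Liv-/- replicate 3. Dnaja3 (-0.19 and -0.29) and Hspe1 (-0.19 and -0.25) fell in whole liver, and Htra2 was at -0.26 in hepatocytes without passing and rose by 0.20 in whole liver. With median-ratio size factors Htra2 passed as lower in hepatocytes (-0.33, adjusted p = 0.0913) and was at -0.02 in whole liver. Its interaction (-0.46, adjusted p = 0.0616) no longer passed with these size factors and without Cdk1 Liv-/- whole liver replicate 3. Where no count is given above for a direction of a list of stress or immediate early genes in a genotype comparison, 0 genes passed, and limma and the ordinary two-sample test also gave 0 at an unadjusted p under 0.05.

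**Figure D5:**
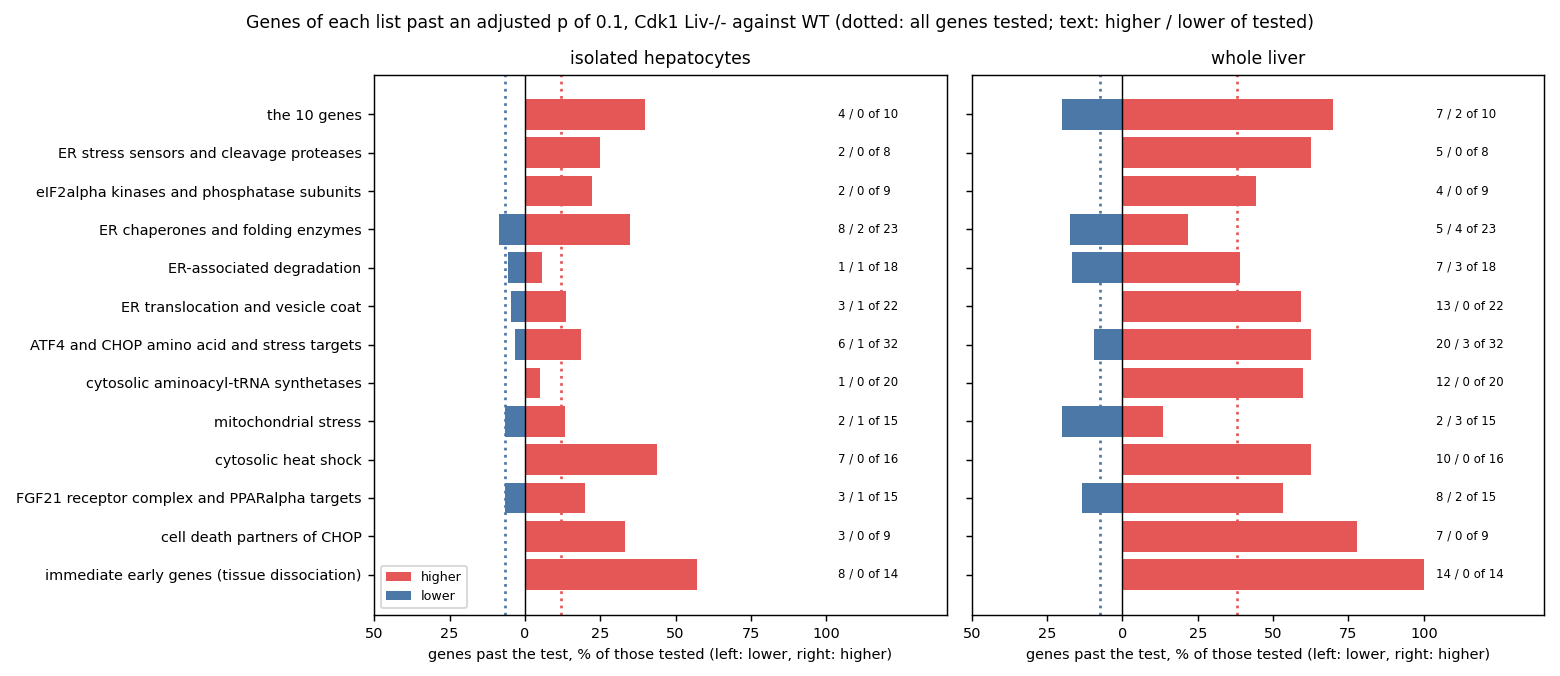
Share of the genes of each list past an adjusted p of 0.1 in Cdk1 Liv-/- against WT, in percent of those tested, lower to the left and higher to the right (horizontal axes), with the counts beside the bars and the share of all genes as dotted lines (12.1% and 6.61% in hepatocytes, 38.0% and 7.53% in whole liver). In whole liver the ATF4 and CHOP target list has 20 genes higher and 3 lower of 32, and the chaperone list 5 higher and 4 lower of 23; the values are those before median-ratio size factors, which changed the calls of all genes from 6610 higher and 1310 lower to 3107 and 2844.

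The genes whose log2 levels followed those of 4 members most closely over the 12 libraries, among 12281 genes with a mean of at least 1 FPKM, are given as a description, since the libraries share genotype and compartment. For Hspa5 the closest was Pdia6, an ER disulfide isomerase (Pearson r = 0.968), followed by Topbp1, Rab27a, Lonp1 and Nup54 (0.922 to 0.928). For Xbp1 they were 2810403A07Rik (0.959), Lztfl1, Lrrfip1, Zbtb25 and Cpeb1 (0.942 to 0.953). For Ddit3 they were Rnaseh2a (0.957), Nt5c3, Fgl1, Ugdh and Gm2a (0.945 to 0.956), and Fgl1, a hepatocyte secreted protein, had means of 346 FPKM in hepatocytes of WT and 935 FPKM in those of Cdk1 Liv-/- animals and, in the same order, of 394 and 749 FPKM in whole liver. For Fgf21 the closest was Ehhadh, an enzyme of peroxisomal fatty acid oxidation (0.910), with means of 69.2 and 71.3 FPKM in hepatocytes and 63.9 and 94.5 FPKM in whole liver, followed by Rbpms, Trit1, Chkb and Cblb (0.871 to 0.883).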

How the data were processed

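The authors prepared stranded libraries of polyadenylated RNA, aligned the reads with STAR to mm10 and deposited FPKM values per gene estimated with RSEM 1.2.31, with 1 column per library and no normalization between libraries. The annotation release and the use of strand in counting were not named by any source at hand. The deposited FPKM values of 12 libraries were tested as log2(FPKM + 0.5) with limma 3.58.1 in R 4.3.3 (moderated variances with a trend, two-sided), for 17386 genes with a mean of at least 0.1 FPKM. P-values were adjusted by Benjamini-Hochberg over all of them, and an adjusted p of at most 0.1 passed. Fold changes are on the log2(FPKM + 0.5) scale, which understates those of low genes. The genotypes were compared in 3 against 3 libraries within each compartment, the compartments within each genotype, and the interaction over all 12. Depth was estimated from the steps of low FPKM values and transcript lengths in GENCODE M21 (56.2 to 63.3% of values within 0.1 of a whole read, 20.0% by chance). The test was checked on simulated data.

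Named were all 10 members, all ER stress sensors, the 2 largest and 2 smallest log2 fold changes of each other pathway list in each compartment, and the 5 genes most correlated with 4 members; 1 gene that this rule names is not reported here. Members and lists were chosen with earlier results of these data known. Lists were described by counts and medians, without a set test. Marker lists of B and plasma cells, erythroid, pancreatic acinar and T and NK cells were also read. Alternatives were pseudocounts of 0.1 and 1, no filter, a mean of at least 1 FPKM, median-ratio size factors, the same FPKM sum per library, 1 fit of all 12 libraries, an ordinary two-sample test, a replicate block and leaving out each library. The counts of the lists under both scalings and without 3 libraries were added after the data had been seen. Python 3.11.15 with matplotlib 3.10.9 drew the figures.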

Additional observations from a re-analysis of the deposited data

How the results depend on the processing

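Of 790 log2 fold changes of the 10 genes recomputed under the alternatives, 675 kept their direction and side of the threshold, 72 lost the call, 26 gained one and 17 turned. Between WT compartments and in the interaction, with 150 and 190 of these values, no gene had a call to lose. Of the lost calls, 26 were in hepatocytes (4 genes passed in the main fit), 28 in whole liver (9 passed) and 18 between Cdk1 Liv-/- compartments (3 passed). The cause of these changes was not tested, except that no filter adds genes to the adjustment and leaving out a library removes samples. Estimated read numbers were lowest for Chac1 (44.7 to 360) and Fgf21 (57.1 to 266).

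In hepatocytes, 4 genes were higher, against 1 with no filter, 2 with median-ratio size factors, 1 with the ordinary two-sample test, 6 in 1 fit of all 12 libraries, where Xbp1 and Trib3 passed too, and 1 to 3 leaving out a library. Of all genes, 2108 were higher and 1149 lower, against 3434 and 2072 in 1 fit of all 12 libraries, 1352 and 568 with the ordinary test, 714 lower with no filter, and 1157 to 1622 and 402 to 1224 leaving out a library. Leaving out a library, Fgf21 lay between -0.269 and 0.380, above 0 without WT replicate 3 (0.151) or Cdk1 Liv-/- replicate 2, and Herpud1 between -0.515 and 0.157, above 0 without the latter.

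In whole liver, 7 were higher and 2 lower, against 4 and 2 with median-ratio size factors, 4 and 1 with the ordinary test, 1 lower with no filter and in 1 fit of all 12, and 3 to 7 and 1 to 2 leaving out a library. Of all genes, 6610 and 1310 became 3107 and 2844 with median-ratio size factors and 4509 to 6190 and 859 to 1296 leaving out a library. Hspa5 turned to -0.022 with median-ratio size factors.

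Between WT compartments, 18 genes were higher and 247 lower, against 48 higher with no filter, 8 and 81 at a mean of 1 FPKM, 11 and 68 with median-ratio size factors, 8 and 111 with the same FPKM sum, 39 and 471 in 1 fit of all 12, 3 and 23 with the ordinary test, and 1 to 413 and 0 to 2656 leaving out a library (0 to 2 of the 10 genes lower). Hspa5 turned to 0.022 with median-ratio size factors. Leaving out a library, Trib3 lay between -0.212 and 0.296, below 0 without hepatocyte replicate 3, whole liver replicate 1 (-0.117) or whole liver replicate 2 (-0.137), and Chac1 between -0.003 and 0.467, below 0 without whole liver replicate 1.

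Between Cdk1 Liv-/- compartments, 1 of the 10 was higher and 2 lower, against 0 higher with a pseudocount of 1, 0 and 1 with no filter, 2 higher at a mean of 1 FPKM, 3 and 0 with median-ratio size factors, 2 higher with the same FPKM sum and in 1 fit of all 12, where 3 were lower, 0 and 1 with the ordinary test, and 0 to 3 and 1 to 2 leaving out a library. Of all genes, 1540 and 6234 became 3502 and 3710 with median-ratio size factors, and 860 to 1858 and 4855 to 5896 leaving out a library. Xbp1 turned to 0.149 and Dnajb9 to 0.198 with median-ratio size factors. Leaving out a library, Xbp1 lay between -0.321 and 0.041 and Hspa5 between -0.014 and 0.127, turned without hepatocyte replicate 1, and Dnajb9 between -0.142 and 0.004, turned without whole liver replicate 2.

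In the interaction, 409 genes were higher and 1303 lower, against 237 and 678 with no filter, 492 lower with median-ratio size factors and 35 to 487 and 43 to 2232 leaving out a library (0 to 2 and 0 to 1 of the 10 genes). Leaving out a library, Dnajb9 lay between -0.044 and 0.220, below 0 without WT hepatocyte replicate 2 (-0.029) or WT whole liver replicate 3, and Xbp1 between -0.137 and 0.225, below 0 without Cdk1 Liv-/- hepatocyte replicate 3.

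Libraries with the same replicate number did not deviate together (correlations -0.32 to 0.24), and the main fits did not pair them. The labels do not say whether hepatocytes and whole liver of the same number share an animal. With a replicate block, 2 of the 10 genes were higher in hepatocytes and 1 lower between Cdk1 Liv-/- compartments. All genes were then 1048 higher and 408 lower in hepatocytes, 0 and 0 between WT compartments and 201 and 455 in the interaction. In whole liver, members past the threshold went from 9 to 10, while all genes went from 6610 higher and 1310 lower to 5567 and 1042.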

Other observations

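Markers of the remaining cell types were read in the same libraries. Beside their counts, 12.1% of all genes passed as higher and 6.61% as lower in hepatocytes, and 38.0% and 7.53% in whole liver. T and NK cell markers, led by Gzma, summed to 4.80, 3.43 and 6.32 FPKM in WT and to 1.74, 1.13 and 1.40 FPKM in Cdk1 Liv-/- hepatocytes, with 5 of 9 lower (3 without Cdk1 Liv-/- replicate 2), and to 12.1, 18.4 and 9.99 FPKM in WT and 7.87, 11.1 and 8.76 FPKM in Cdk1 Liv-/- whole liver, with 1 of 9 lower, a call lost without Cdk1 Liv-/- replicate 3. B and plasma cell markers, led by Ighm, summed to 10.8, 9.19 and 26.7 FPKM in WT and to 7.66, 4.71 and 3.96 FPKM in Cdk1 Liv-/- hepatocytes, with 3 of 9 tested lower and all 3 calls lost without Cdk1 Liv-/- replicate 2; in whole liver 1 was higher and 2 were lower (1 without Cdk1 Liv-/- replicate 3). Erythroid markers, led by Hbb-bs, summed to 147, 108 and 583 FPKM in WT and to 72.7, 99.9 and 24.8 FPKM in Cdk1 Liv-/- hepatocytes, with 1 of 8 lower (3 with median-ratio size factors), a call lost without WT replicate 3, and had 2 of 8 lower in whole liver (1 without Cdk1 Liv-/- replicate 3). Neutrophil and myeloid progenitor markers had 1 of 9 higher in Cdk1 Liv-/- hepatocytes. Sinusoidal endothelial markers had 2 of 10 higher in Cdk1 Liv-/- whole liver, and both calls were lost with median-ratio size factors and without Cdk1 Liv-/- replicate 3. With these size factors the endothelial marker Dnase1l3 passed as lower there (log2 fold change -0.37, adjusted p = 0.0349, limma). Of 10 pancreatic acinar genes, most of which were at 0 in some library, 3 were tested, and 1 was higher and 1 lower in whole liver, the higher call being lost with median-ratio size factors and without Cdk1 Liv-/- replicate 3; the sums, led by Cela1, lay between 4.89 and 7.38 FPKM in all libraries. Their part in the changes of the stress genes was not tested.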
